A study of Mus musculus with 19 samples.

Results

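Pancreatic islets of 3-week-old mice that lack the paternal copy of *Nnat* and carry the *Nnat*+/-p-*Light*-like label were compared with islets of wild-type (WT) mice of the same age. The comparison takes the 3 *Nnat*+/-p-*Light*-like and the 4 WT libraries labelled 3 weeks, 7 of the 19 libraries of the series, with 1 library per mouse. The mice were F1 offspring of FVBN/J females and C57BL6/J males that carried the *Nnat* deletion, and the WT mice were littermate controls of the same cross, so every mouse shares a hybrid background. The 3 *Nnat*+/-p-*Light*-like mice were males, and the WT mice were 3 males and 1 female. The same fit also held *Nnat*+/-p-*Heavy*-like mice of that age, of which 1 was male and 2 were female, and their values are given beside the others. The deletion is present from the germ line in every cell, so a difference in islets need not arise in islet cells. The sources used here do not state how a 3-week-old mouse was assigned to the *Light*-like or the *Heavy*-like label. The study names clusters of mutant transcriptomes at this age in that way, so it is not known whether the tests below are independent of the assignment.

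*Nnat* is an imprinted gene expressed from the paternal copy, and it encodes a small membrane protein of the endoplasmic reticulum (ER) that in beta cells assists the processing of the insulin precursor. Immediate early genes are transcribed within minutes of a stimulus without new protein synthesis. In beta cells they respond to glucose, calcium and cyclic AMP through kinases that act on the transcription factors CREB and SRF. Many of them encode transcription factors, such as the FOS, JUN and EGR proteins, and many others encode proteins that end the response, such as phosphatases and factors that destroy short-lived mRNAs.

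Reads counted on genes ranged from 9758461 to 17074980 in *Nnat*+/-p-*Light*-like mice and from 9894991 to 13156545 in WT mice. Levels are given as CPM, counts scaled to library sizes that were adjusted by TMM, a method that uses the bulk of genes with similar levels. *Ins2* took between 23.1% and 28.8% of the counts of these 7 mice. *Nnat* had between 470 and 523 counts in the WT mice and at most 2 in each *Nnat*+/-p-*Light*-like mouse, at least 177-fold lower against a floor of 3 counts per mouse. *Gm23134*, a miRNA gene annotated inside *Nnat*, had between 70 and 98 counts in WT and 0 in *Nnat*+/-p-*Light*-like mice, at least 31.0-fold lower by the same floor. *Blcap*, whose intron holds *Nnat*, averaged 52.1 ± 2.35 CPM (SD, n = 3) in *Nnat*+/-p-*Light*-like islets, beside 47.7 ± 3.33 CPM (SD, n = 4) in WT, and was not called (edgeR adjusted p = 0.521). The sex labels of these 7 mice matched the counts of X- and Y-linked genes.

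The quasi-likelihood test of edgeR was applied to 16257 genes, and a gene is called here when its Benjamini-Hochberg adjusted p is under 0.05. This called 201 genes (1.24% of those tested). Of these, 84 (0.517%) were higher and 117 (0.72%) lower in *Nnat*+/-p-*Light*-like islets. In each of the 201 the *Nnat*+/-p-*Light*-like mice did not overlap the WT mice, a separation found in 11% of all genes tested. The falls were deeper than the rises, with a median absolute log2 fold change of 0.75 among called lower genes and 0.46 among called higher genes. Of these genes, 45 fell by 1 or more on the log2 scale and 13 rose by as much. With libraries scaled to their total counts instead of by TMM, 139 genes were called and 23% of them were higher, against 41.8% with TMM. Without *Nnat*+/-p-*Light*-like mouse 1, 2 or 3 the number of called genes was 114, 107 and 103.

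**Figure D1:**
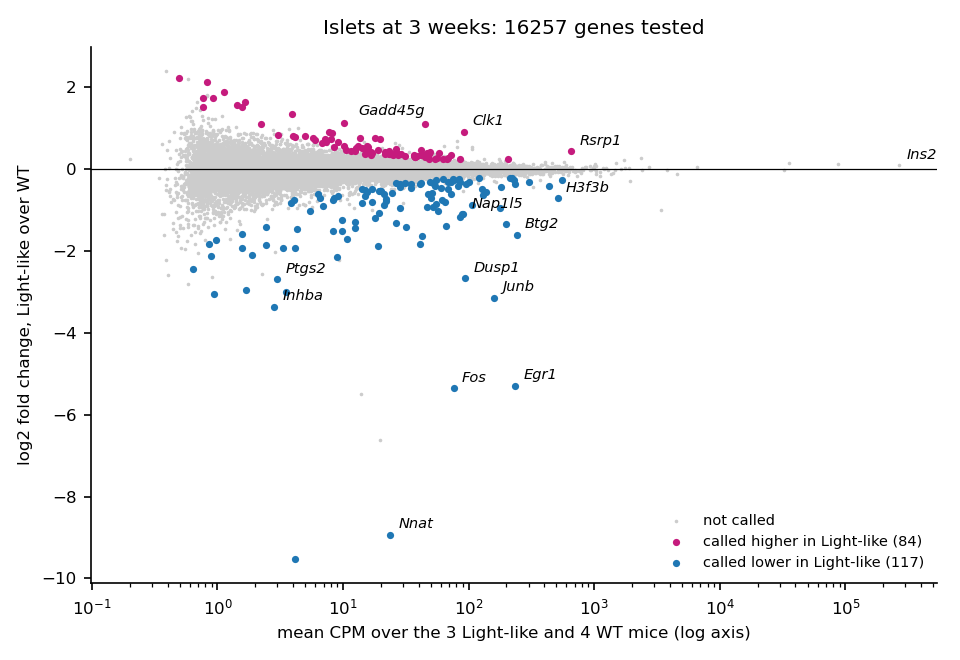
Log2 fold change of *Nnat*+/-p-*Light*-like over WT islets at 3 weeks (y axis) against the mean CPM of the 7 mice (x axis, log scale), 1 point per gene tested. Among the called genes 13 lie at 1 or above and 45 at -1 or below, with *Fos*, *Egr1*, *Junb* and *Dusp1* far below the rest at their expression level; the grey points below -5 are genes of X inactivation, measured in the 1 WT female.

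Immediate early genes stood out among the called lower genes. Of the 32 listed immediate early genes that could be tested, 18 were lower in *Nnat*+/-p-*Light*-like islets and 0 were higher, against 0.72% called lower among all genes. The median log2 fold change of the 32 genes was -0.97, beside -0.0035 over all genes tested. Below 0 were 29 of the 32, beside 8325 of all 16257 genes. A further 5 listed genes had too few counts to be tested. The list was drawn up with *Egr1* and *Fos* already known to be low in these mice.

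*Fos* encodes a subunit of the AP-1 transcription factor and lies at chr12:85473890-85477273 (GRCm38). It was at 161, 133, 132 and 94.6 CPM in the WT mice and at 4.64, 2.89 and 2.49 CPM in the *Nnat*+/-p-*Light*-like mice. The lowest WT mouse thus stood far above the highest *Nnat*+/-p-*Light*-like mouse, and the log2 fold change was -5.35 (standard error 0.22, edgeR adjusted p = 7.38e-11). *Egr1*, a zinc finger transcription factor induced by growth factors and glucose, was at 517, 399, 402 and 284 CPM in WT and at 14.0, 9.65 and 7.96 CPM in *Nnat*+/-p-*Light*-like mice. Again the groups did not overlap, with a log2 fold change of -5.29 (standard error 0.20, edgeR adjusted p = 2.59e-11).

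The partners of *Fos* in AP-1 fell less than *Fos* itself. *Junb* (chr8:84974484-84978718) was at 320, 240, 279 and 190 CPM in WT and at 36.1, 28.8 and 23.9 CPM in *Nnat*+/-p-*Light*-like mice, a log2 fold change of -3.14 (standard error 0.16, edgeR adjusted p = 1.89e-09). *Jun* (chr4:95049034-95052222) was at 68.0, 58.4, 62.1 and 52.1 CPM in WT and at 22.7, 17.8 and 18.8 CPM in *Nnat*+/-p-*Light*-like mice. The log2 fold change of *Jun* was -1.62 (standard error 0.09, edgeR adjusted p = 7.15e-09). *Jund*, the member of the family that is expressed without a stimulus, had the smallest change of the 18 called genes. It was at 346, 340, 337 and 303 CPM in WT and at 264, 268 and 263 CPM in *Nnat*+/-p-*Light*-like mice, a log2 fold change of -0.32 (standard error 0.05, edgeR adjusted p = 0.00137). The groups did not overlap for any of the JUN genes. *Fosl2*, another AP-1 gene, had a log2 fold change of -0.62 and missed the threshold (edgeR adjusted p = 0.0529).

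*Dusp1*, *Btg2* and *Zfp36* were among the 18 called genes of the list. *Dusp1* (chr17:26505590-26562128), a phosphatase that inactivates MAP kinases, was at 168, 142, 168 and 109 CPM in WT and at 28.5, 20.7 and 21.5 CPM in *Nnat*+/-p-*Light*-like mice. This made a log2 fold change of -2.66 (standard error 0.13, edgeR adjusted p = 1.35e-09). *Btg2* (chr1:134075170-134079120), an anti-proliferative cofactor of mRNA deadenylation, was at 385, 327, 361 and 281 CPM in WT and at 116, 111 and 109 CPM in *Nnat*+/-p-*Light*-like mice. Every *Nnat*+/-p-*Light*-like mouse lay below every WT mouse for both genes, and the log2 fold change of *Btg2* was -1.60 (standard error 0.09, edgeR adjusted p = 7.15e-09). *Zfp36*, which binds AU-rich elements and promotes decay of the mRNAs that carry them, was at 56.5, 43.7, 40.2 and 32.2 CPM in WT and at 15.3, 17.4 and 15.8 CPM in *Nnat*+/-p-*Light*-like mice. Its log2 fold change was -1.41 (standard error 0.14, edgeR adjusted p = 5.32e-06).

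Among nuclear receptors of the immediate early class, *Nr4a1* was at 16.8, 12.4, 12.6 and 11.6 CPM in WT and at 2.02, 4.24 and 2.49 CPM in *Nnat*+/-p-*Light*-like mice. Its log2 fold change was -2.14 (standard error 0.22, edgeR adjusted p = 1.02e-05). The other called members of the list are named here after their values were seen. *Ier2*, *Sik1* (a kinase induced by cyclic AMP), *Arc*, *Ccn1*, *Ier3* and *Nr4a2* had log2 fold changes of -1.82, -1.51, -1.42, -1.23, -1.19 and -1.01. Those of *Rgs2* (a regulator of G protein signalling), *Per1* and *Maff* were -0.94, -0.82 and -0.65. Not every immediate early gene was low: *Crem*, *Klf10* and *Ier5* had log2 fold changes of 0.06, 0.07 and 0.24 and were not called.

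**Figure D2:**
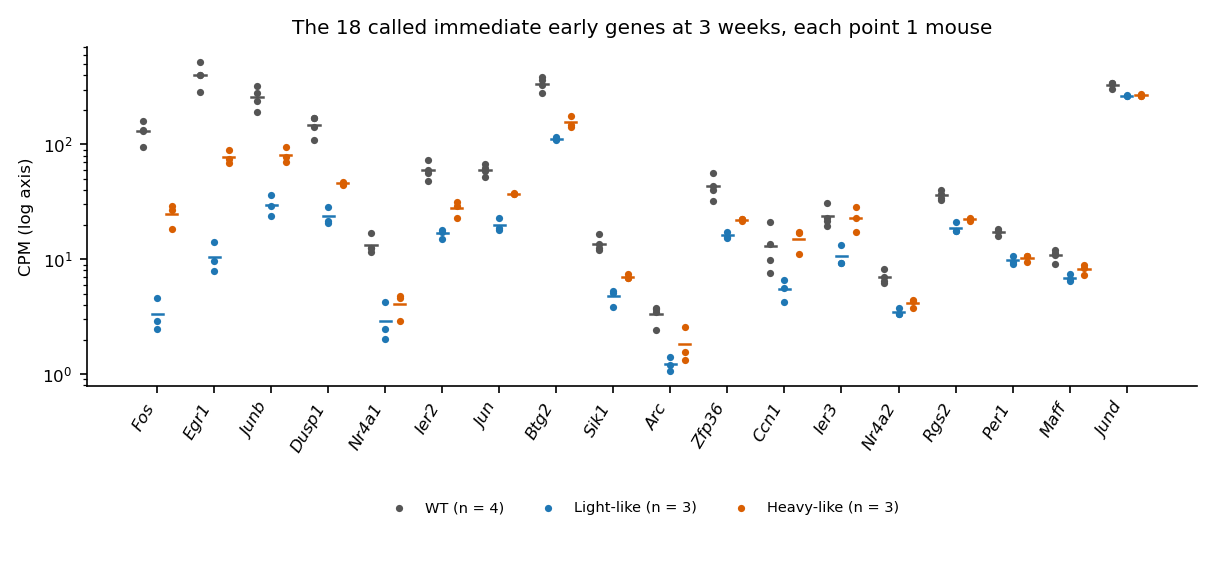
CPM (y axis, log scale) of the 18 called immediate early genes in each 3-week-old mouse, ordered by log2 fold change, with WT in grey, *Nnat*+/-p-*Light*-like in blue and *Nnat*+/-p-*Heavy*-like in orange; points are mice and bars are group means. In each of the 18 genes all 3 blue points lie below all 4 grey points, and the distance shrinks from *Fos* on the left to *Jund* on the right.

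The 250 bases before the start of each gene were searched on both strands for the full cyclic AMP response element (CRE, TGACGTCA), the site bound by CREB. RefSeq promoters of GRCm38.p6 were found for 88 of the 117 called lower genes, and 9 of these (10.2%) held a full CRE. Among the 55 called higher genes with a promoter 1 (1.82%) held it, and among all 27025 genes with a promoter 1.77% did. Since genes differ in their number of starts, the same shares per promoter were 6.87% (131 promoters), 1.54% (65 promoters) and 1.55% (32851 promoters). The values for all genes in this search include genes not tested in islets, so they are not a like background for called genes. The 9 genes were *Arl4d*, *Btg2*, *Dusp1*, *Errfi1*, *Klc1*, *Ltbp1*, *Maff*, *Ppp1r15a* and *Th*. The CArG box bound by SRF was found before 2 called lower genes (2.27%), *Zfp36* and *Lef1*, beside 1.62% of all genes. The AP-1 site TGACTCA was found before 5.68% of called lower genes and 5.16% of all genes, and the EGR site GCGTGGGCG before 1.14% and 0.622%. These searches were made after the values were seen, and they describe letters only. The stretches around the CRE, in capitals, are shown for 5 of the genes because their distance from the start and the flanking bases differ, each 5′ to 3′ on the strand of the gene.
*Btg2*, chr1:134079264-134079371, minus strand: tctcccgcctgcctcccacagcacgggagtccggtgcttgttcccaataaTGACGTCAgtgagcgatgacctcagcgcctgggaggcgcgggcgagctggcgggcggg
*Dusp1*, chr17:26508558-26508665, minus strand: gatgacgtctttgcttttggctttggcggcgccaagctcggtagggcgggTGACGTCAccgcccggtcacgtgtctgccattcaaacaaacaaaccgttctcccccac
*Errfi1*, chr4:150854969-150855069, plus strand: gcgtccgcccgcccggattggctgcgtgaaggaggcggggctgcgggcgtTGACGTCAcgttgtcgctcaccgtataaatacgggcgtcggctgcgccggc
*Arl4d*, chr11:101665465-101665540, plus strand: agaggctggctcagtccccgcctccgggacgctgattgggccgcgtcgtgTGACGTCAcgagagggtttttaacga
*Ppp1r15a*, chr7:45526269-45526329, minus strand: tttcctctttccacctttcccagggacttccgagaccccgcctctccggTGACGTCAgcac

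The CRE begins 166 bases before the start in *Btg2*, 143 in *Dusp1*, 51 in *Errfi1*, 26 in *Arl4d* and 12 in *Ppp1r15a*. *Errfi1*, an inhibitor of the EGF receptor, fell by 0.91 on the log2 scale (edgeR adjusted p = 1.89e-07), and *Arl4d*, a small GTPase, by 1.92 (edgeR adjusted p = 0.000699). Both were chosen after their values were seen. The searched stretch before *Fos*, *Junb*, *Jun* and *Nr4a1* held neither a full CRE nor a CArG box. Bases further from the start and variants of these sites were not searched. Of the 18 called immediate early genes 14 had a promoter in this search, and *Egr1*, *Ier2*, *Sik1* and *Arc* had none.

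**Figure D3:**
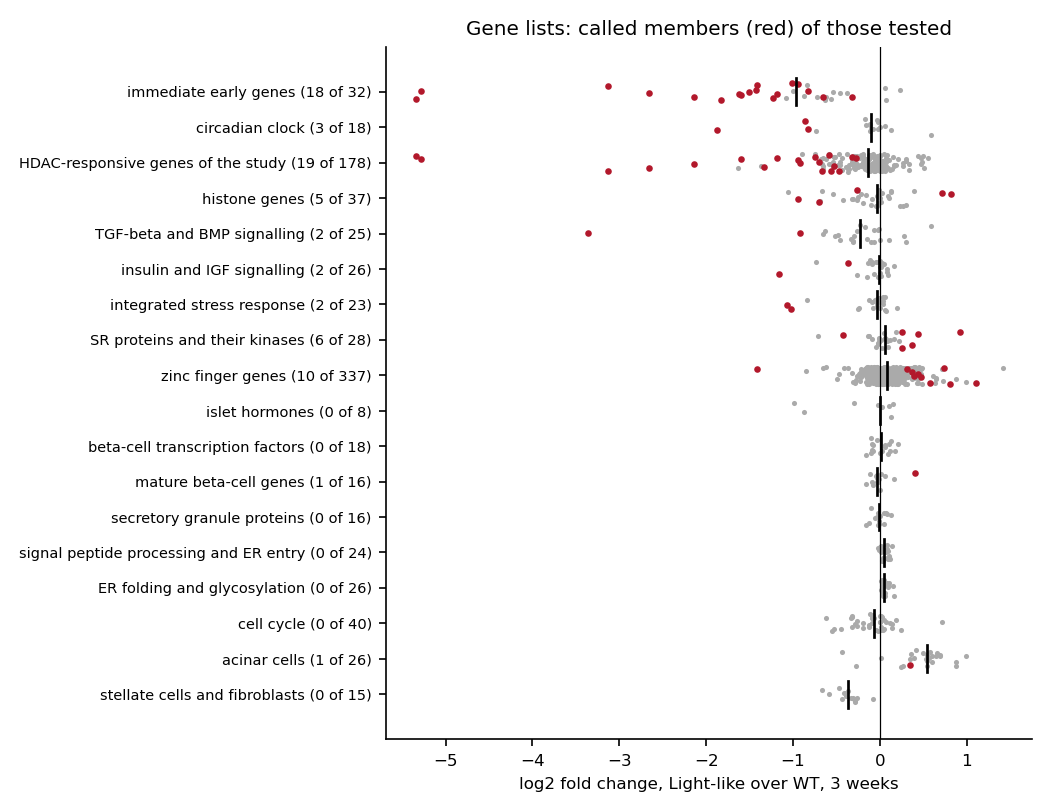
Log2 fold change of *Nnat*+/-p-*Light*-like over WT islets (x axis) of every tested member of 18 gene lists (y axis), with called members in red, the others in grey and the list median as a black line; the numbers in brackets are called members of those tested. Red points gather below 0 in the immediate early genes, on both sides of 0 in the histone genes and mostly above 0 in the SR proteins and zinc finger genes. The medians of the hormone, granule and ER lists lie near 0, but among the hormones *Ppy* and *Ghrl* lie at -0.99 and -0.87.

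Of 18 tested genes of the circadian clock, 3 were lower and 0 higher, beside 0.72% called lower among all genes, and the median of the list was -0.11. *Ciart*, a repressor in the clock feedback loop, was at 30.8, 26.3, 30.4 and 22.6 CPM in WT and at 7.06, 8.29 and 7.03 CPM in *Nnat*+/-p-*Light*-like mice. The mice did not overlap, and the log2 fold change was -1.88 (standard error 0.12, edgeR adjusted p = 3.42e-08). *Nfil3*, a repressor of the clock output, fell by 0.86 on the log2 scale (edgeR adjusted p = 5.82e-05), and *Per1*, which belongs to both this list and the immediate early genes, by 0.82 (edgeR adjusted p = 5.87e-05). The core genes *Clock*, *Arntl*, *Per2* and *Cry1* were not called and had log2 fold changes of 0.06, 0.13, -0.01 and -0.02.

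In the insulin and insulin-like growth factor pathway 2 of 26 tested genes were lower, beside 0.72% called lower among all genes, with a list median of -0.01. *Irs2*, the adaptor that links the insulin receptor to PI3 kinase and a known target of CREB in beta cells, was at 117, 106, 127 and 95.5 CPM in WT and at 52.2, 51.3 and 46.0 CPM in *Nnat*+/-p-*Light*-like mice. The difference was a log2 fold change of -1.16 (standard error 0.08, edgeR adjusted p = 1.14e-07). *Pik3r1*, the regulatory subunit of PI3 kinase, was at 60.2, 55.4, 60.9 and 58.3 CPM in WT and at 47.5, 44.4 and 44.97 CPM in *Nnat*+/-p-*Light*-like mice, a log2 fold change of -0.37 (edgeR adjusted p = 0.00318). The groups were separate for both genes. The receptors *Insr* and *Igf1r* and the adaptor *Irs1* were not called, with log2 fold changes of 0.09, 0.05 and 0.03.

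Several stress and nutrient sensors were lower without a shift of their lists. *Txnip*, which binds thioredoxin and is induced by glucose in beta cells, was at 248, 290, 339 and 189 CPM in WT and at 122, 96.1 and 99.9 CPM in *Nnat*+/-p-*Light*-like mice. The log2 fold change was -1.34 (standard error 0.14, edgeR adjusted p = 1.47e-05). *Ppp1r15a*, which directs dephosphorylation of the initiation factor eIF2 alpha, fell by 1.02 on the log2 scale (edgeR adjusted p = 2.34e-07), from 61.6 to 80.9 CPM in WT mice to between 35.0 and 37.9 CPM. *Ddit4*, an inhibitor of mTORC1, fell by 1.07 (edgeR adjusted p = 0.000403). *Vegfa*, which islets secrete to maintain their capillaries, was at 463, 474, 517 and 490 CPM in WT and at 370, 354 and 369 CPM in *Nnat*+/-p-*Light*-like mice, a log2 fold change of -0.41 (edgeR adjusted p = 6.97e-05). *Mt1*, a metal-binding metallothionein, fell by 0.63 (edgeR adjusted p = 0.00893), and the call was lost without *Nnat*+/-p-*Light*-like mouse 1 or 3 (edgeR adjusted p at most 0.0665). The integrated stress response list had 2 of 23 members lower and a median of -0.03, the hypoxia list 2 of 14 and a median of -0.03, and the oxidative stress list 2 of 18 and a median of 0.0026, where 0.72% of all genes were called lower.

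Secreted signals and their targets included some of the deepest falls, at low expression. *Inhba*, a subunit of activin, was at 9.18, 4.94, 2.99 and 1.24 CPM in WT and at 0.302, 0.430 and 0.568 CPM in *Nnat*+/-p-*Light*-like mice, a log2 fold change of -3.36 (standard error 0.60, edgeR adjusted p = 0.00596). *Il11*, a cytokine of the interleukin 6 family, was at 5.67, 1.73, 1.97 and 1.53 CPM in WT and at 0, 0.369 and 0.568 CPM in *Nnat*+/-p-*Light*-like mice. *Ptgs2*, the inducible cyclooxygenase, was at 8.78, 2.71, 3.46 and 3.43 CPM in WT and at 1.61, 0.491 and 0.284 CPM in *Nnat*+/-p-*Light*-like mice. WT mouse 1 was the highest of the 7 for each of these 3 genes, and the log2 fold changes of *Il11* and *Ptgs2* were -2.96 and -2.69 (edgeR adjusted p = 0.0165 and 0.0216). All 3 genes lost their call without *Nnat*+/-p-*Light*-like mouse 2, and over all alternatives the highest edgeR adjusted p was 0.0590 for *Inhba*, 0.102 for *Il11* and 0.168 for *Ptgs2*. *Id2*, a target of BMP signalling that blocks bHLH factors, kept its call under every alternative and was at 60.1, 52.0, 61.7 and 60.1 CPM in WT and at 27.2, 32.6 and 32.3 CPM in *Nnat*+/-p-*Light*-like mice, a log2 fold change of -0.92 (edgeR adjusted p = 2.83e-06). *Hes1*, the Notch effector, and *Lef1*, a transcription factor of Wnt signalling, had log2 fold changes of -0.66 and -1.93 (edgeR adjusted p = 0.0289 and 0.0175), and both lost their call when *Nnat*+/-p-*Light*-like mouse 2 or 3 was left out, *Hes1* also without mouse 1 or WT mouse 1 (edgeR adjusted p at most 0.221). The TGF-beta and BMP list had 2 of 25 genes lower with a median of -0.23, the Notch list 1 of 19 with a median of -0.01, and the Wnt list 1 of 23 with a median of -0.03, again beside 0.72% of all genes.

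Histone genes were called in both directions. *H3f3b*, which encodes the replication-independent histone H3.3, was at 609, 654, 625 and 555 CPM in WT and at 413, 363 and 356 CPM in *Nnat*+/-p-*Light*-like mice. For *H3f3b* the log2 fold change was -0.70 (standard error 0.06, edgeR adjusted p = 2.56e-06). In a list of histone genes assembled after the values were seen, 5 of 37 were called, beside 1.24% of all genes. *Hist1h1c* and *H1f0*, linker histones, fell by 0.94 and 0.26 on the log2 scale, while *Hist1h4d* and *Hist2h4*, histone H4 genes, rose by 0.72 and 0.82. Near-identical histone genes can share reads, and how the counting treated such reads was not given in the sources used here. The 188 genes that the study lists as responsive to histone deacetylases (HDACs) all matched a gene and 178 were tested, of which 19 were lower and 0 higher (10.7%), beside 0.72% called lower among all genes. The median of the list was -0.13, beside -0.0035 over all genes. *Egr1*, *Fos*, *Dusp1*, *Junb*, *Btg2*, *Nr4a1* and *Ier3*, immediate early genes described above, are among the 19. The study took that list from its 6-week *Heavy* and *Light* islets and also showed it at 3 weeks, so it was used here with that result known. Of the 18 tested HDAC genes themselves, edgeR called 0, with 1 at an unadjusted p under 0.05 and 0 called by DESeq2. That unadjusted p was reached in edgeR by 1843 of all 16257 genes tested.

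*Nap1l5*, an imprinted gene expressed from the paternal copy like *Nnat*, was at 117, 124, 124 and 104 CPM in WT and at 58.9, 52.6 and 54.5 CPM in *Nnat*+/-p-*Light*-like mice. The log2 fold change was -1.09 (standard error 0.07, edgeR adjusted p = 2.41e-08). It lies at chr6:58905233-58907076, on another chromosome than *Nnat*. *Nnat*, the deleted gene, and *Nap1l5* were the 2 genes called of 35 imprinted genes tested, beside 1.24% of all genes, and the list median was 0.02.

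Among abundant genes that fell, *Prnp*, the prion protein gene, averaged 595 ± 38.9 CPM (SD, n = 4) in WT and 494 ± 21.3 CPM (SD, n = 3) in mutant islets (log2 fold change -0.27, edgeR adjusted p = 0.0224), and its call was lost under 5 of 17 alternatives. *Slc12a5*, a potassium chloride cotransporter, was the single called gene of 232 tested solute carriers (0.431%, beside 1.24% of all genes). Its log2 fold change was -0.60 (edgeR adjusted p = 0.0307), and its call was lost under 10 of 17 alternatives. *Ptp4a1*, a phosphatase, was at 5.91, 5.02, 6.37 and 5.15 CPM in WT and at 0.806, 0.614 and 0.71 CPM in *Nnat*+/-p-*Light*-like mice, a log2 fold change of -2.99 (edgeR adjusted p = 3.17e-07). The annotation holds 2 overlapping genes of that name, and reads could have been split between them. The C/EBP factors *Cebpb* and *Cebpd*, the cold-inducible RNA-binding protein gene *Cirbp* and the chromatin protein gene *Hmgb2*, all named after their values were seen, fell by 1.08, 1.31, 0.55 and 1.44 on the log2 scale.

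For 4 called antisense or opposite-strand RNAs, chosen after their values were seen, the sense partner was called lower as well. *Junos* opposite *Jun*, *Gm15441* opposite *Txnip*, *9530052E02Rik* opposite *Irs2* and *Gm11175* opposite *Jund* had log2 fold changes of -1.51, -1.39, -1.28 and -0.36. The partners' values were -1.62, -1.34, -1.16 and -0.32. Since it is not stated whether the counting used strand, reads of the 2 genes of each pair cannot be told apart. Of the 201 called genes, 69 overlap an exon of a gene on the other strand. The share of such genes among all genes tested was not counted, so the 69 cannot be read as a trait of called genes.

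The genes that rose in *Nnat*+/-p-*Light*-like islets included regulators of pre-mRNA splicing. *Clk1*, a kinase that phosphorylates SR splicing factors, was at 66.8, 68.3, 70.2 and 62.3 CPM in WT and at 123, 125 and 132 CPM in *Nnat*+/-p-*Light*-like mice. Its log2 fold change was 0.92 (standard error 0.07, edgeR adjusted p = 2.10e-07), and the groups were widely separated. *Rsrp1*, a serine- and arginine-rich nuclear protein, was at 563, 563, 596 and 567 CPM in WT and at 775, 765 and 785 CPM in *Nnat*+/-p-*Light*-like mice, a log2 fold change of 0.44 (standard error 0.05, edgeR adjusted p = 1.36e-05).

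In a list of 28 SR proteins and their kinases, assembled after *Clk1* and *Rsrp1* were seen to be called, 5 genes were higher and 1 lower (0.517% and 0.72% of all genes), with a median of 0.06. *Srsf7*, *Pnn* and *Luc7l3* rose by 0.26, 0.25 and 0.37 on the log2 scale (edgeR adjusted p = 0.00566, 0.0118 and 0.0136). *Srsf6* went the other way, from 208, 204, 198 and 202 CPM in WT to 167, 148 and 139 CPM, a log2 fold change of -0.43 (edgeR adjusted p = 0.000262). With total counts as library sizes, *Srsf7* and *Pnn* kept their direction but were no longer called (edgeR adjusted p = 0.180 and 0.232).

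*Gadd45g*, a stress-induced regulator of growth arrest, had one of the largest rises among well-expressed genes. It was at 33.3, 30.5, 29.0 and 26.8 CPM in WT and at 58.4, 69.2 and 66.2 CPM in *Nnat*+/-p-*Light*-like mice, a log2 fold change of 1.11 (standard error 0.10, edgeR adjusted p = 2.56e-06). *Ffar1*, the receptor through which fatty acids potentiate insulin secretion, was the single called gene of 16 mature beta-cell genes, beside 1.24% of all genes. It was at 39.2, 38.4, 42.9 and 43.8 CPM in WT and at 54.3, 57.7 and 50.8 CPM in *Nnat*+/-p-*Light*-like mice, a log2 fold change of 0.40 (edgeR adjusted p = 0.0115), and the call was lost without *Nnat*+/-p-*Light*-like mouse 1 or 2 and with total counts as library sizes (edgeR adjusted p at most 0.107). *Rhobtb1* and *Rprd1b*, 2 of the most abundant called higher genes, rose by 0.36 and 0.28 on the log2 scale (edgeR adjusted p = 0.00596 and 0.0163), and with total counts as library sizes neither was called. *Rprd1b* lost its call under 6 of 17 alternatives in all, among them males alone and without *Nnat*+/-p-*Light*-like mouse 1 or 3 or WT mouse 2 (edgeR adjusted p at most 0.185), and *Rhobtb1* under no other.

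**Figure D4:**
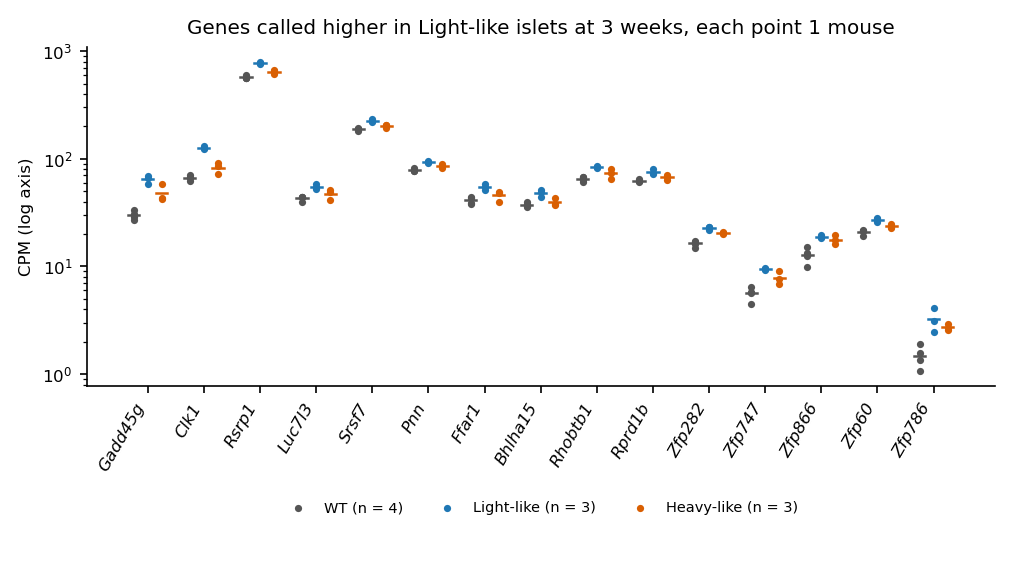
CPM (y axis, log scale) of 15 genes called higher in *Nnat*+/-p-*Light*-like islets in each 3-week-old mouse, with WT in grey, *Nnat*+/-p-*Light*-like in blue and *Nnat*+/-p-*Heavy*-like in orange; points are mice and bars are group means. All 3 blue points lie above all 4 grey points for every gene, with the widest gaps for *Gadd45g* and *Clk1* and narrow gaps for most others.

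Of 337 tested genes with a Zfp symbol, 9 were higher and 1, *Zfp36*, lower, beside 0.517% and 0.72% of all genes. The median of the list was 0.09, and 226 of the 337 genes were above 0, beside 7932 of all 16257. Most of these genes encode transcription factors with zinc fingers. *Zfp282* was at 17.4, 16.9, 16.2 and 14.98 CPM in WT and at 23.4, 21.6 and 23.4 CPM in *Nnat*+/-p-*Light*-like mice, a log2 fold change of 0.47 (standard error 0.08, edgeR adjusted p = 0.00300). *Zfp747*, *Zfp866*, *Zfp60* and *Zfp786* rose by 0.74, 0.58, 0.37 and 1.11 on the log2 scale (edgeR adjusted p = 0.0102, 0.0118, 0.0161 and 0.0341), and *Zfp282* alone of the 5 held its call under all 17 alternatives. With total counts as library sizes, 3 Zfp genes were called higher. Without *Nnat*+/-p-*Light*-like mouse 1, 2 or 3 the number of called Zfp genes, *Zfp36* included, was 5, 3 and 5, and it was 6 without WT mouse 2.

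Many of the highest log2 fold changes belonged to RNAs annotated without a protein, mostly with few counts. *Gm44793*, antisense to *Zfp112*, averaged 0.324 ± 0.164 CPM (SD, n = 4) in WT and 1.48 ± 0.192 CPM (SD, n = 3) in mutant islets (log2 fold change 2.13, edgeR adjusted p = 0.00814). *Zfp112* itself rose by 0.81 on the log2 scale, and without strand the reads of both cannot be told apart. *Gm16140*, antisense to *Meis1*, and *Gm43500*, antisense to the glucose-responsive factor gene *Mlxipl*, rose by 1.89 and 1.14 (edgeR adjusted p = 0.00256 and 0.000131), while *Meis1* and *Mlxipl* were not called (edgeR adjusted p = 0.214 and 0.706). *Gm45203*, *BC030343*, *Gm30238*, *Gm20045*, *Gm37893* and *A730091E23Rik* rose by between 1.35 and 1.75 on the log2 scale. The last 4 of these lost their call under between 5 and 9 of 16 alternatives. Genes without a protein made up 21 of the 84 called higher and 19 of the 117 called lower genes, which leaves 75% and 83.8% protein-coding, beside 81.9% of all genes tested. The annotation class that still awaits experimental evidence held 8.33% of the called higher genes, beside 2.52% of all genes tested. Among the lower genes *Gm24119*, a snoRNA gene, had a log2 fold change of -3.04 (edgeR adjusted p = 0.00372), and its call was lost without *Nnat*+/-p-*Light*-like mouse 2 (edgeR adjusted p = 0.0559).

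Of the 8 islet hormone genes edgeR called 0, with 2 at an unadjusted p under 0.05 and 0 called by DESeq2. *Ins1* averaged 83870 ± 8256 CPM (SD, n = 4) in WT and 91440 ± 8334 CPM (SD, n = 3) in mutant islets (edgeR adjusted p = 0.689). The adjusted p-values of *Ins2*, *Gcg*, *Sst*, *Iapp*, *Pyy* and *Ghrl* lay between 0.429 and 0.965. *Ppy*, the pancreatic polypeptide gene, was at 4013, 6420, 3921 and 2815 CPM in WT and at 1022, 4431 and 1042 CPM in *Nnat*+/-p-*Light*-like mice, which overlap through mouse 2. Its log2 fold change was -0.99 (edgeR adjusted p = 0.326) with that mouse and -2.06 (edgeR adjusted p = 0.000249) without it, and that of *Pyy* moved from -0.29 to -0.54 (edgeR adjusted p = 0.0318). Of 18 beta-cell transcription factors, 16 secretory granule genes, 18 exocytosis genes, 24 genes of signal peptide processing and ER entry, 26 genes of ER folding and glycosylation and 40 cell cycle genes, edgeR called 0 of each. At an unadjusted p under 0.05 these lists had 4, 2, 2, 0, 2 and 2 genes, and DESeq2 called 0 of each. Of all 16257 genes tested, 1843 had an unadjusted p under 0.05 in edgeR. The medians of these 6 lists lay between -0.07 and 0.05. Each of the 26 ER folding genes had a log2 fold change above 0, the smallest 0.01, and so had 22 of the 24 ER entry genes, beside 7932 of all 16257.

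Markers of other cells were measured beside these values, and in bulk islets fewer cells of a type and less RNA per cell cannot be told apart. The summed CPM of 31 acinar genes ranged from 474 to 1146 in *Nnat*+/-p-*Light*-like and from 187 to 968 in WT mice. Of its 26 tested genes 24 were above 0, beside 7932 of all 16257, and the median was 0.54. *Bhlha15*, a transcription factor of secretory cells, was the single called one, beside 1.24% of all genes (log2 fold change 0.35, edgeR adjusted p = 0.0143). That call was lost without *Nnat*+/-p-*Light*-like mouse 1 or 3 and with total counts as library sizes (edgeR adjusted p at most 0.113). The summed CPM of stellate cell and fibroblast genes ranged from 950 to 1031 in *Nnat*+/-p-*Light*-like mice and from 935 to 1583 in WT mice, where WT mice 1 and 4 were at 1583 and 1565. All 15 tested stellate and fibroblast genes were below 0, beside 8325 of all 16257 genes, with a median of -0.37. edgeR called 0 of these 15, with 6 at an unadjusted p under 0.05 and 0 called by DESeq2. The part of these cells in the lower values of *Inhba*, *Il11*, *Ptgs2* and *Ccn1* was not tested. Macrophage genes summed to between 231 and 305 CPM in *Nnat*+/-p-*Light*-like and between 276 and 330 CPM in WT mice, and endothelial genes to between 89.3 and 104 CPM and between 83.9 and 121 CPM. Of 17 macrophage and 15 endothelial genes, 15 and 9 were below 0, with medians of -0.17 and -0.07. edgeR called 0 of them, with 2 and 1 at an unadjusted p under 0.05 and 0 called by DESeq2. Among all 16257 genes tested, 1843 had an unadjusted p under 0.05 in edgeR.

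The *Nnat*+/-p-*Heavy*-like mice were measured against the same WT mice, so the values are set side by side only. Their comparison with WT called 112 genes (0.689%). The 18 called immediate early genes had a median log2 fold change of -1.46 in *Nnat*+/-p-*Light*-like and -0.92 in *Nnat*+/-p-*Heavy*-like islets. Of the 18, 14 were also called lower in *Nnat*+/-p-*Heavy*-like mice against WT. Of the 201 called genes, 195 had the same sign there and 70 were also called with that sign, beside 10547 and 108 of all 16257 genes. As the WT mice are shared, this is not an independent comparison. *Fos* was at 26.8, 18.3 and 29.3 CPM and *Egr1* at 74.2, 68.6 and 90.1 CPM in the *Nnat*+/-p-*Heavy*-like mice, between the other groups. The direct comparison of *Nnat*+/-p-*Heavy*-like with *Nnat*+/-p-*Light*-like mice, which uses no WT value in its difference, called 23 genes (0.141%). The genes named below were picked because the same *Nnat*+/-p-*Light*-like mice differed from WT, so for them this is not an independent test. Sex also differed between the mutant groups. The direct comparison called 6 of the 18 immediate early genes, *Egr1*, *Fos*, *Junb*, *Jun*, *Dusp1* and *Ier3* (edgeR adjusted p between 1.33e-06 and 0.0171), each with less in the *Nnat*+/-p-*Light*-like mice. *Clk1* differed as well, at 71.6, 85.1 and 92.2 CPM in *Nnat*+/-p-*Heavy*-like mice (edgeR adjusted p = 0.000590), and so did *Rsrp1* (edgeR adjusted p = 0.0294) and *Hist1h1c* (edgeR adjusted p = 0.000351). *Inhba*, *Il11* and *Ptgs2* were also higher in *Nnat*+/-p-*Heavy*-like mice (edgeR adjusted p = 0.00296, 0.0108 and 0.0456), at means of 8.26, 4.66 and 5.74 CPM. *Nap1l5*, *Ciart*, *Nfil3*, *Per1*, *Irs2* and *Txnip* did not reach the threshold between the mutant groups (edgeR adjusted p between 0.0828 and 0.887).

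At 6 weeks, where all mice were male, the same comparison of *Nnat*+/-p-*Light* with WT islets (3 mice each) called 2 of 16463 genes (0.0121%), *Nnat* and *Gm23134*. The test of the difference between the ages reuses the 3-week values by which the 201 genes were picked, so for them it is not an independent test. It called 36 of 17107 genes (0.21%), 29 of them among the 201 genes called at 3 weeks. Both counts depend on WT mouse 1 of the 6-week mice: without it, 415 genes were called at 6 weeks, and 71 of the 201 genes differed between the ages. Without *Nnat*+/-p-*Light* mouse 2 or 3 of that age, 18 of the 201 differed. In WT mouse 1 of that age stellate cell and fibroblast genes summed to 268 CPM and endothelial genes to 334 CPM, beside 1454 and 1057 CPM and 153 and 213 CPM in the other WT mice. In the *Nnat*+/-p-*Light* mice these sums ranged from 299 to 575 CPM and from 361 to 462 CPM. The acinar sums of the 6-week mice were 11010, 12610 and 23880 CPM in WT and 15660, 25690 and 30570 CPM in *Nnat*+/-p-*Light* islets, against at most 1146 CPM in the 3-week mice of these groups. The part of these cells in the 6-week values and in the differences between the ages was not tested. Of the 117 genes called lower at 3 weeks, 112 were tested at 6 weeks and 73 (65.2%) were again below 0. Of the 84 called higher, 83 were tested and 29 (34.9%) were again above 0. The same sign was found in 52.3% of all called genes together and in 50.4% of all genes. Below 0 at 6 weeks were 65.1% of the called higher and 65.2% of the called lower genes, beside 49.5% of all genes.

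Of the 18 immediate early genes, picked by the same 3-week values, 7 differed between the ages, beside 0.21% of all genes in that test. At 6 weeks edgeR called 0 of the 18 with all mice, with 2 at an unadjusted p under 0.05 and 0 called by DESeq2, and it called 2 without WT mouse 1. With all mice, 1554 of the 15760 genes tested at both ages had an unadjusted p under 0.05 in edgeR at 6 weeks. *Egr1* was at 19.7, 43.0 and 25.7 CPM in the 6-week WT mice and at 26.1, 28.4 and 33.3 CPM in the *Nnat*+/-p-*Light* mice, so that those groups overlapped. The log2 fold changes differed between the ages by -5.25 for *Egr1*, -4.27 for *Fos*, -2.84 for *Junb* and -2.52 for *Dusp1* (edgeR adjusted p between 1.84e-06 and 0.00718). The *Egr1* level of every 6-week WT mouse lay below that of every 3-week WT mouse. The tables of the 2 ages were scaled separately, and age cannot be told apart from when the libraries were made. *Clk1* and *Rsrp1* had log2 fold changes of -0.41 and -0.36 at 6 weeks, neither called (edgeR adjusted p = 0.431 and 0.461), and differed between the ages by 1.34 and 0.81 (edgeR adjusted p = 0.000131 and 0.0115). *Txnip*, *Per1* and *Irs2* were below 0 at both ages, with log2 fold changes of -0.80, -0.63 and -0.54 at 6 weeks that were not called (edgeR adjusted p = 0.450, 0.498 and 0.431). Without WT mouse 1 of the 6-week mice, edgeR called 19 of the 201 genes there, *Nnat* and *Gm23134* included, beside 379 of all 15839 genes. Of the 19, 14 had the same sign as at 3 weeks and 5 the opposite sign. *Txnip* and *Per1* were among the 14 (edgeR adjusted p = 0.00342 and 0.0375). *Mt1* was among the 5, with a log2 fold change of 1.56 (edgeR adjusted p = 0.0184).

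**Figure D5:**
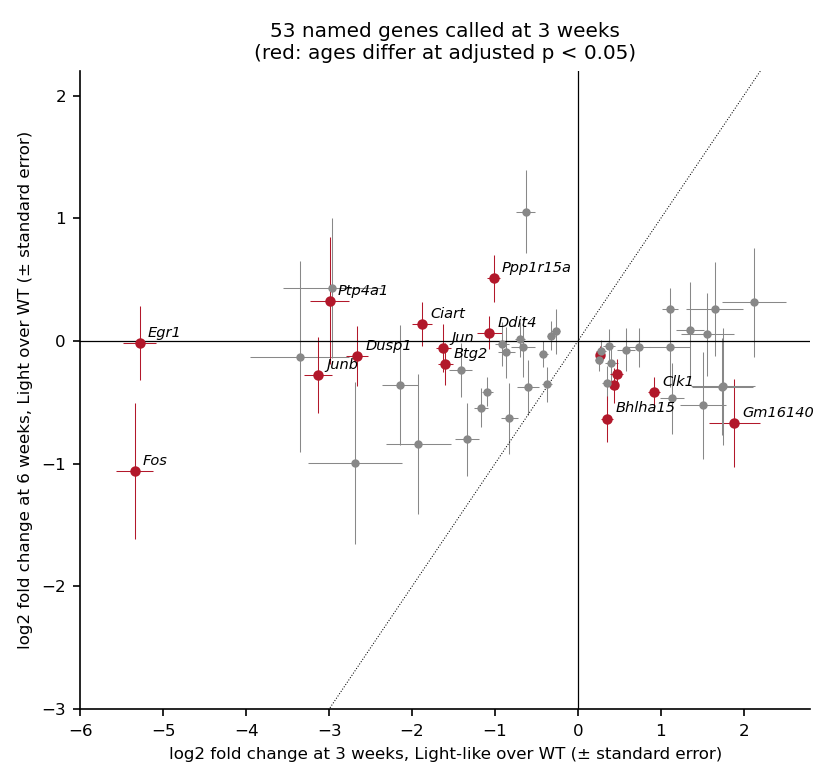
Log2 fold change of *Nnat*+/-p-*Light*-like over WT islets at 3 weeks (x axis) and of *Nnat*+/-p-*Light* over WT islets at 6 weeks (y axis) for 53 named genes called at 3 weeks, with standard errors as bars, without *Nnat* and *Gm23134*; red points differ between the ages in edgeR's test and the dotted line marks equal values. Most genes lie nearer to 0 on the y axis than on the x axis, but some, such as *Pik3r1* and *Per1*, lie close to the dotted line. The test called a difference for 16 of the 65 named genes, beside 0.21% of all genes in it, and the ages share no mice. The genes shown were picked by their 3-week values, which the test reuses and which favour values nearer to 0 at 6 weeks.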

How the data were processed

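Islet RNA was amplified with SMART-Seq v4 and made into Nextera DNA Flex libraries, and the authors processed the reads with snakePipes2 on GRCm38.p6 and deposited raw read counts per gene, without normalization, in one table per age. The aligner, the counter and any strand setting are not given in the sources used here. Of 55450 genes, 55450 matched GENCODE M21. That the mice are separate animals comes from their labels, so p-values and standard errors cover the spread between these mice. Floors cover counting error only. All 10 mice of 3 weeks were fitted together with edgeR 4.0.16 in R 4.3.3 (TMM, filterByExpr, quasi-likelihood test, 1 mean per group), after tests on simulated data. Log2 fold changes are those of the fit. Members and gene lists were chosen with earlier results of these data known. Named genes were the *Nnat* locus, *Egr1*, *Fos*, islet hormones, the 12 highest and 12 lowest called log2 fold changes without overlap and with at least 10 counts on average, the 6 most abundant called genes each way, and at most 5 called members per list in order of p. Figures used matplotlib. Alternatives were other scalings, DESeq2 1.42.0, other filters and thresholds, sex, a replicate block and each mouse left out. Leaving out each mouse in the 6-week and age comparisons, and DESeq2 at 6 weeks, were added after the data were seen.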

Additional observations from a re-analysis of the deposited data

Results flagged for a closer look

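In 7 of 65 named genes, 1 of the 4 WT mice at 3 weeks stood apart from the others by Dixon's ratio of gap to range, where chance gives about 1 group in 20. The ratio was 0.988 for *Blcap* (WT mouse 4 lowest), 0.867 for *Gm37893* (WT mouse 3 highest), 0.857 for *Rsrp1* (WT mouse 3 highest, at 596 beside 563 to 567 CPM) and 0.834 for *Id2* (WT mouse 2 lowest). WT mouse 1 was the highest for *Il11* (0.894), *Ptgs2* (0.877) and *Hes1* (0.934), with 22.4 CPM of *Hes1* beside 16.1 to 16.5 CPM in the others. The calls of *Ptgs2* and *Hes1* were lost without WT mouse 1.

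The difference between *Light* and WT islets differed between 3 and 6 weeks in edgeR's test of that difference for 16 of 65 named genes, beside 0.21% of all 17107 genes. Most named genes were picked by their 3-week values, so for them this is not an independent test. The log2 fold change at 3 weeks minus that at 6 weeks was -5.25 for *Egr1*, -4.27 for *Fos*, -3.31 for *Ptp4a1*, -2.84 for *Junb*, -2.52 for *Dusp1*, -2.01 for *Ciart*, -1.55 for *Jun*, -1.52 for *Ppp1r15a*, -1.40 for *Btg2* and -1.12 for *Ddit4*. It was 2.56 for *Gm16140*, 1.34 for *Clk1*, 0.99 for *Bhlha15*, 0.81 for *Rsrp1*, 0.75 for *Zfp282* and 0.38 for *Srsf7*.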

How the results depend on the processing

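Leaving out the fit without a filter, 0 of the values of named genes under 17 alternatives changed direction in a called result, and 31 of 56 called named genes were called under every alternative that tested them. These include *Fos*, *Egr1*, *Junb*, *Jun*, *Dusp1*, *Btg2*, *Nr4a1*, *Zfp36*, *Irs2*, *Txnip*, *Nap1l5*, *Ciart*, *H3f3b*, *Id2*, *Clk1*, *Rsrp1* and *Gadd45g*. Without any filter on low counts 481 genes were called at 3 weeks, but that fit is void: edgeR's prior degrees of freedom became infinite, each gene's own spread was set aside, and *Ppy* was tested with a quasi-dispersion of 0.316 where its own was 64.0. A filter of 10 counts over all mice, chosen after seeing this, called 194. The number was 91 at an adjusted p under 0.01, 58 with changes of 1 or more on the log2 scale, and between 103 and 174 with each mouse left out. With the replicate number as a block 136 genes were called. The deviations of same-numbered mice of the 2 groups had correlations of -0.02, 0.01 and 0.10. Those of differently numbered mice ranged from -0.08 to 0.10. With so few mice these values cannot tell whether the numbers pair the mice. At 6 weeks DESeq2 called 28 genes, and with each mouse left out edgeR called between 1 and 415. The difference between the ages was called in 18 genes with males alone and in between 19 and 646 with each mouse left out. The cause of these shifts was not tested.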
